A study of Mus musculus with 24 samples.

Results

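Kidneys of the Schlager mouse strains were compared according to how much liver transcript each kidney array carried. The measure was *Alb*, the gene of serum albumin, on the log2 scale of the deposited values. The arrays were chosen by this value alone. Arrays below 10 were called liver-poor and arrays more than 1.5 above that limit liver-rich, which took in 20 of the 24 arrays, 9 liver-rich and 11 liver-poor, and left 4 out. Each array held the kidney RNA of 1 untreated mouse aged 12 weeks. There were 6 arrays in each of 4 groups, namely males and females of the hypertensive strain BPH/2J and males and females of the normotensive strain BPN/3J. The strains are inbred lines from 1 selection programme for blood pressure, so a strain difference also holds whatever else was fixed by breeding. The methods state that blood pressure was not measured in these mice.

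All 4 groups held arrays of both kinds. Liver-rich and liver-poor arrays numbered 3 and 2 in males of BPN/3J, 2 and 4 in males of BPH/2J, 2 and 2 in females of BPN/3J and 2 and 3 in females of BPH/2J. The liver-rich set was made up of male arrays 2, 4 and 6 and female arrays 2 and 5 of BPN/3J, and of male arrays 1 and 3 and female arrays 2 and 3 of BPH/2J. The arrays resembled each other in their overall values, with a median over all probe sets of 6.89 to 6.97.

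Hepatocytes, the main cells of the liver, make most plasma proteins, including albumin, the clotting factors and the apolipoproteins, and they make bile acids and urea and oxidise drugs. The kidney does not make most of these plasma proteins in quantity. The proximal tubule does share a large part of the hepatocyte's metabolism, above all gluconeogenesis, amino acid breakdown and peroxisomal fatty acid oxidation, under some of the same transcription factors. A liver-type gene can therefore be measured in kidney RNA because the kidney makes it, because liver RNA is present, or both. In whole tissue RNA, a change in the number of cells of a type and a change in the RNA of each cell cannot be told apart.

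Because *Alb* chose the arrays, every difference between liver-rich and liver-poor arrays below is a description and was given no test. Differences were fitted by a linear model with the 4 groups as a covariate and are given on the log2 scale with their standard error (9 against 11 arrays). A gene past 1, which is 2-fold, was counted as higher, and a gene whose 95% interval lay between -0.5 and 0.5 was counted as constant. Array values are compressed for weakly expressed genes, so large differences can be understated.

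*Alb* itself was 11.59, 12.02 and 13.89 in the lowest, median and highest liver-rich array, and 8.45, 9.58 and 9.88 in the liver-poor arrays. The lowest liver-rich array was BPH/2J male 3, at 11.59, and the highest liver-poor array was BPN/3J female 3, at 9.88. The 4 arrays between the limits were BPN/3J male 5 at 10.22, BPN/3J female 1 at 10.22, BPH/2J female 6 at 10.26 and BPN/3J female 4 at 11.13. *Alb* varied widely within every group. In the normotensive strain it went from 8.45 to 11.96 among males and from 9.85 to 13.89 among females, and in the hypertensive strain from 8.83 to 12.82 and from 9.55 to 13.24. The highest values were those of BPN/3J females 5 and 2, at 13.89 and 13.86.

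The other marker genes followed *Alb*. *Ahsg*, which encodes the plasma glycoprotein fetuin-A, was 8.45, 9.22 and 13.03 in the lowest, median and highest liver-rich array and 4.66, 5.56 and 6.49 in the liver-poor arrays. *Fgb*, the fibrinogen beta chain, was 8.03, 9.08 and 12.72 in liver-rich arrays against 5.59, 6.05 and 6.75. *Apoa1*, the main protein of high density lipoprotein, was 7.90, 9.73 and 12.74 against 5.79, 6.38 and 7.08. In these 3 genes no liver-rich array reached down to the highest liver-poor array. The differences were 4.69 ± 0.53 for *Ahsg*, 3.89 ± 0.46 for *Fgb*, 3.67 ± 0.44 for *Apoa1* and 3.15 ± 0.22 for *Alb* (± SE).

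**Figure D1:**
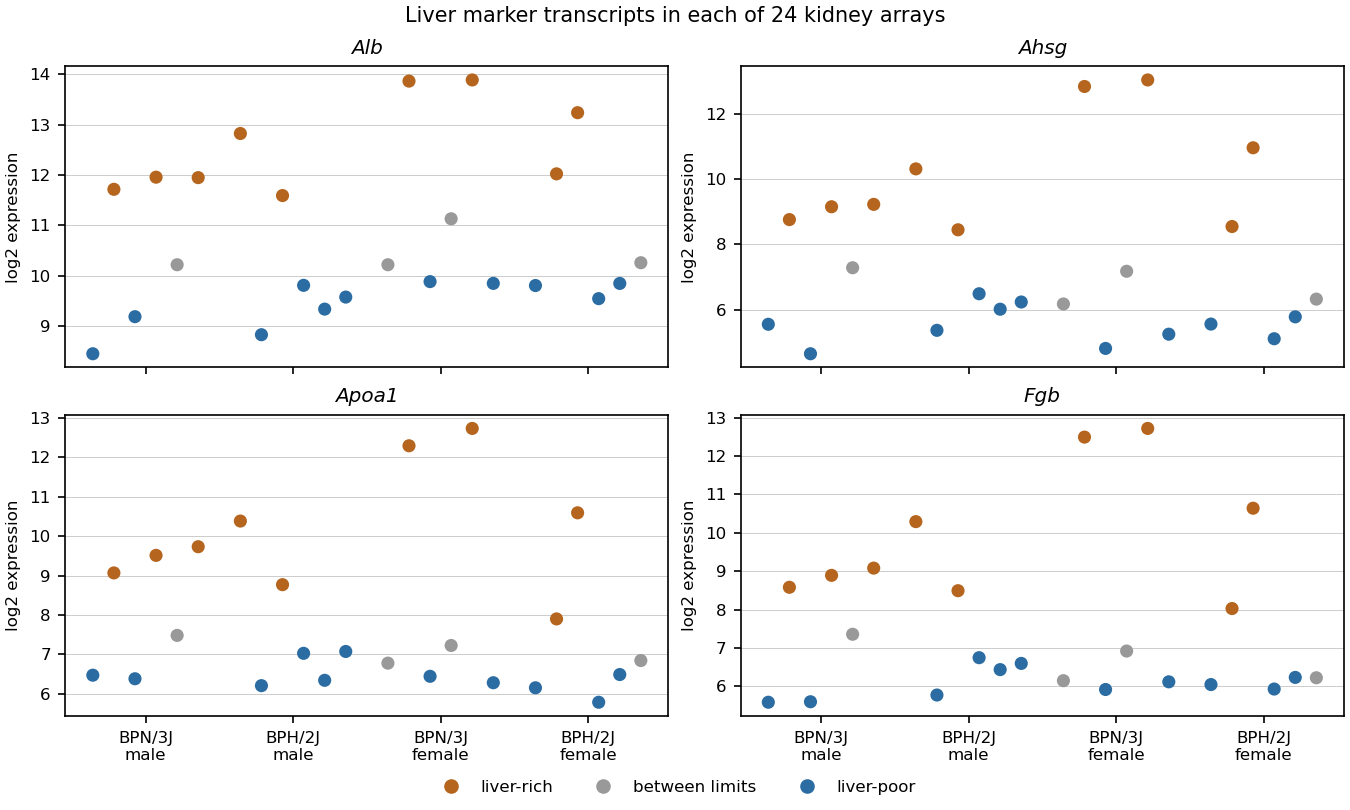
Log2 expression of *Alb*, *Ahsg*, *Apoa1* and *Fgb* in each of the 24 kidney arrays, 1 point per array, by strain and sex and coloured by the liver-rich, intermediate and liver-poor sets that *Alb* defined. Liver-rich arrays occur in all 4 groups, and BPN/3J females 2 and 5 hold the highest values of all 4 genes.

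The start regions of 3 of these marker genes are printed to show what such promoters hold, beside 1 from a liver-type gene that stayed constant, *Pck1* (phosphoenolpyruvate carboxykinase, the gatekeeper of gluconeogenesis). They are RefSeq sequences of build GRCm38.p6, read 5′ to 3′ along the gene, with positions counted back from the base before the annotated start. Capitals mark matches to GTTAAT, a core of sites for HNF1 factors, and TTGCNNAA, a form of site for C/EBP factors, each on either strand. The *Alb*, *Fgb* and *Ahsg* windows run from -150 to -1 and the *Pck1* window from -250 to -101. They lie at chr5:90460720-90460869 (*Alb*, plus strand), chr3:83049864-83050013 (*Fgb*, minus strand), chr16:22891865-22892014 (*Ahsg*, plus strand) and chr2:173152823-173152972 (*Pck1*, plus strand).
Alb: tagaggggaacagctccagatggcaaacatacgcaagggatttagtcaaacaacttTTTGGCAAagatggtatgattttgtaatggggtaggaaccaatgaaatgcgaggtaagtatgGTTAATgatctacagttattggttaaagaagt
Fgb: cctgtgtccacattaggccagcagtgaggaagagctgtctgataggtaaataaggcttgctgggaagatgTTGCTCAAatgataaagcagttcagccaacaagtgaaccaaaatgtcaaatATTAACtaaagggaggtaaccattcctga
Ahsg: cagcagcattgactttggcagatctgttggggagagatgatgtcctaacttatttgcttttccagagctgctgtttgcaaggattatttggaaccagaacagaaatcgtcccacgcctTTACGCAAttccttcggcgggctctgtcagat
Pck1: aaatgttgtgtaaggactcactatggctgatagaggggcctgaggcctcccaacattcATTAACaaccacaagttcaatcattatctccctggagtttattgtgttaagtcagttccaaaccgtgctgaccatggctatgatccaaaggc

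The GTTAAT match began at -32 in *Alb*, at -29 in *Fgb* and at -192 in *Pck1*, and the TTGCNNAA match began at -94, -80 and -32 in *Alb*, *Fgb* and *Ahsg*. The *Apoa1* window held 0 of the 7 patterns searched, which says only that those letters are not there.

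Of the 18782 genes with a probe set of their own, 132 were higher by more than 1 in liver-rich arrays (0.703% of genes) and 0 were lower by more than 1. These 132 comprised 106 genes of the liver-type lists, 8 of the adrenal lists, 5 that were listed as sex-dependent or zonal liver genes, and 13 in no list. Liver-rich and liver-poor arrays did not overlap in 63 of the 132, against 0.335% of all genes. The difference had the same sign in all 4 groups for 124 of the 132. At the other end, 18329 genes were constant (97.6%), and the median difference over all genes was -0.01. Since *Alb* chose the arrays, nothing is read from these shares.

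The largest differences after the markers were in *Mup3* (4.32 ± 0.51), *Mup20* (4.16 ± 0.52) and *Serpina1c* (4.01 ± 0.69), an alpha-1-antitrypsin. *Mup3* and *Mup20* encode major urinary proteins, which carry pheromones, and were listed as male-biased liver genes. The Mup and Serpina1 genes have near-identical copies, so the reads of a probe set may come from several of them. *Hamp*, the iron hormone hepcidin, followed at 3.63 ± 0.62, then *Cps1*, which starts the urea cycle, at 3.43 ± 0.47, and *Mug1*, a plasma protease inhibitor, at 3.42 ± 0.39. *Cps1* was 7.30, 8.37 and 12.01 in the lowest, median and highest liver-rich array and 5.06, 5.41 and 6.02 in liver-poor arrays, with no overlap. *Hamp* was 5.35, 7.81 and 12.05 against 3.77, 4.93 and 5.57, and here the sets overlapped, because BPH/2J male 3 lay below the highest liver-poor array.

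The genes whose levels went most closely with *Alb* over the 24 arrays, after subtracting the mean of each group, were *Ahsg* (Pearson r = 0.97), *Fgb* (r = 0.96), *Apoa1* (r = 0.96), *Mup3* (r = 0.96) and *Mug1* (r = 0.96). The next were *Fabp1* and *Cps1* (each r = 0.94), *Ugt2b1* and *Fgg* (each r = 0.93) and *Cyp2c29* (r = 0.93). These are given as a description, since *Alb* also set the arrays apart. The slope on *Alb* was 1.53 ± 0.09 for *Ahsg*, 1.43 ± 0.09 for *Mup3* and 0.97 ± 0.08 for *Fabp1*, the liver fatty acid binding protein, in log2 units per log2 unit of *Alb*.

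Most measured genes of 4 plasma protein lists were past 1. Among coagulation factors and their inhibitors 13 of 20 measured genes were past 1 and 3 were constant, with a median difference of 1.29 beside -0.01 over all genes. The largest were *Fgb*, *Fgg* (fibrinogen gamma chain, 3.13 ± 0.48), *Vtn* (vitronectin, 2.79 ± 0.45), *Plg* (plasminogen, 2.73 ± 0.47) and *F2* (prothrombin, 2.12 ± 0.45). The fibrinogen alpha chain gene *Fga* differed by 1.21 ± 0.31. The constant ones were *Serpinf2*, *Proc* and *F13b*, at 0.25 ± 0.12, 0.08 ± 0.05 and -0.08 ± 0.04. Apolipoproteins and related genes had 10 of 16 past 1 with a median of 1.44, led by *Apoa1*, *Apoa2* (2.76 ± 0.44) and *Apoc1* (2.36 ± 0.43). *Apoe* and *Apob* differed by 0.35 ± 0.13 and 0.33 ± 0.14. *Apom* and *Mttp* were constant, at -0.04 ± 0.08 and 0.07 ± 0.09. *Apom* carries sphingosine-1-phosphate and is made by the proximal tubule as well as the liver.

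Carrier proteins had 11 of 17 past 1 with a median of 1.59. They included *Hpx*, the haem carrier hemopexin, at 2.88 ± 0.47, *Ambp* (alpha-1-microglobulin and bikunin) at 2.75 ± 0.46, *Rbp4*, the retinol carrier, at 1.92 ± 0.35 and *Trf* (transferrin) at 1.59 ± 0.28. *Selenop*, the selenium carrier, was constant at 0.02 ± 0.02. Protease inhibitors and acute phase proteins had 15 of 21 past 1 with a median of 1.36, among them *Itih4* (2.50 ± 0.46), *Crp* (2.00 ± 0.46) and *Apcs* (1.34 ± 0.42). Complement had 4 of 14 past 1 and 3 constant, with a median of 0.53. The terminal components *Hc* (2.11 ± 0.44), *C9* (2.09 ± 0.32) and *C8b* (1.77 ± 0.32) and the inhibitor *C4bp* (1.53 ± 0.40) were past 1, whereas *Cfb* and *C2*, of the alternative and classical pathways, were constant at -0.01 ± 0.03 and -0.06 ± 0.06. The terminal components were not uniform, since *C8a* was constant at 0.03 ± 0.04 and *C6* differed by 0.47 ± 0.10.

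The metabolic lists divided more sharply. In the urea cycle, *Cps1*, *Otc* (2.07 ± 0.44) and *Arg1* (1.82 ± 0.42) were past 1, whereas *Asl*, which makes arginine and is used by the kidney for arginine synthesis, was constant at 0.04 ± 0.03, as were the mitochondrial carriers *Slc25a15* and *Slc25a13*. In amino acid breakdown, 6 of 39 were past 1 and 28 were constant. Those past 1 were *Tat* (tyrosine aminotransferase, 2.83 ± 0.50), *Tdo2* (tryptophan dioxygenase, 2.73 ± 0.47), *Mat1a* (methionine adenosyltransferase, 2.50 ± 0.48), *Agxt*, *Hal* and *Hao1*. The later steps of the tyrosine pathway, *Hpd* (0.01 ± 0.12), *Hgd* (-0.02 ± 0.02) and *Fah* (-0.01 ± 0.02), were constant. In that pathway the first enzyme was thus past 1 and these later enzymes lay within the bounds.

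Of 17 genes of gluconeogenesis and fructose use, 0 were past 1 and 14 were constant. *Pck1* was 12.33, 12.84 and 13.07 in the lowest, median and highest liver-rich array and 12.54, 12.76 and 13.12 in liver-poor arrays, which overlapped throughout. Its difference was 0.02 ± 0.07. *Fbp1* (fructose bisphosphatase), *Khk* (ketohexokinase) and *G6pc* (glucose-6-phosphatase) differed by -0.04 ± 0.02, -0.03 ± 0.03 and -0.14 ± 0.06. The exception nearest to 1 was *Gckr*, the regulator of liver glucokinase, at 0.85 ± 0.27. In fatty acid metabolism 2 of 19 were past 1, *Fabp1* (2.89 ± 0.37) and *Elovl3* (1.29 ± 0.31), and the other 17 were constant, including *Cpt1a*, *Ehhadh* and *Cat*.

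Drug and bile acid genes also lay on both sides. Of 37 hepatic P450 genes 19 were past 1 and 10 constant, with a median of 1.09. *Cyp2c29* (3.11 ± 0.48), *Cyp3a11* (3.08 ± 0.54) and *Cyp2c70* (3.06 ± 0.48) had the largest differences, and *Cyp2j5* (-0.02 ± 0.02), *Cyp4a12a* (0.01 ± 0.10) and *Cyp2a5* (0.00 ± 0.04) were constant. The Cyp2c and Cyp3a genes are close copies, so which member a probe set reads is uncertain. Conjugation and drug handling had 12 of 41 past 1, with *Ugt2b1* at 3.28 ± 0.44 and *Ces1c* at 2.60 ± 0.53, and 20 constant, with *Gstm1* at 0.00 ± 0.03. For bile acids 7 of 23 were past 1, including the uptake transporter *Slc10a1* (2.62 ± 0.47), the export pump *Abcb11* (1.93 ± 0.46) and *Cyp7a1*, the rate-limiting enzyme of bile acid synthesis (1.73 ± 0.48). *Slc27a2* and *Abcc2*, which the tubule also uses, were constant at -0.03 ± 0.01 and -0.02 ± 0.03.

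Of 17 liver transcription factors 0 were past 1 and 11 were constant. *Hnf4a*, a nuclear receptor of hepatocyte and proximal tubule, was 12.89, 13.04 and 13.23 in the lowest, median and highest liver-rich array against 12.83, 13.12 and 13.27 in liver-poor arrays. Its difference was -0.05 ± 0.03. *Cebpa* differed by 0.13 ± 0.06, and the largest values of the list were those of *Onecut2* (0.56 ± 0.19) and *Nr5a2* (0.53 ± 0.15). Of 55 genes listed as shared by proximal tubule and liver, 45 were constant and 6 were past 1, namely *Vtn*, *Ambp*, *Rbp4*, *Ttr*, *Trf* and *Slco1a1*. Taken over all the liver-type lists, 324 of 380 listed genes were measured, of which 106 were past 1, 146 were constant and 72 were neither.

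**Figure D2:**
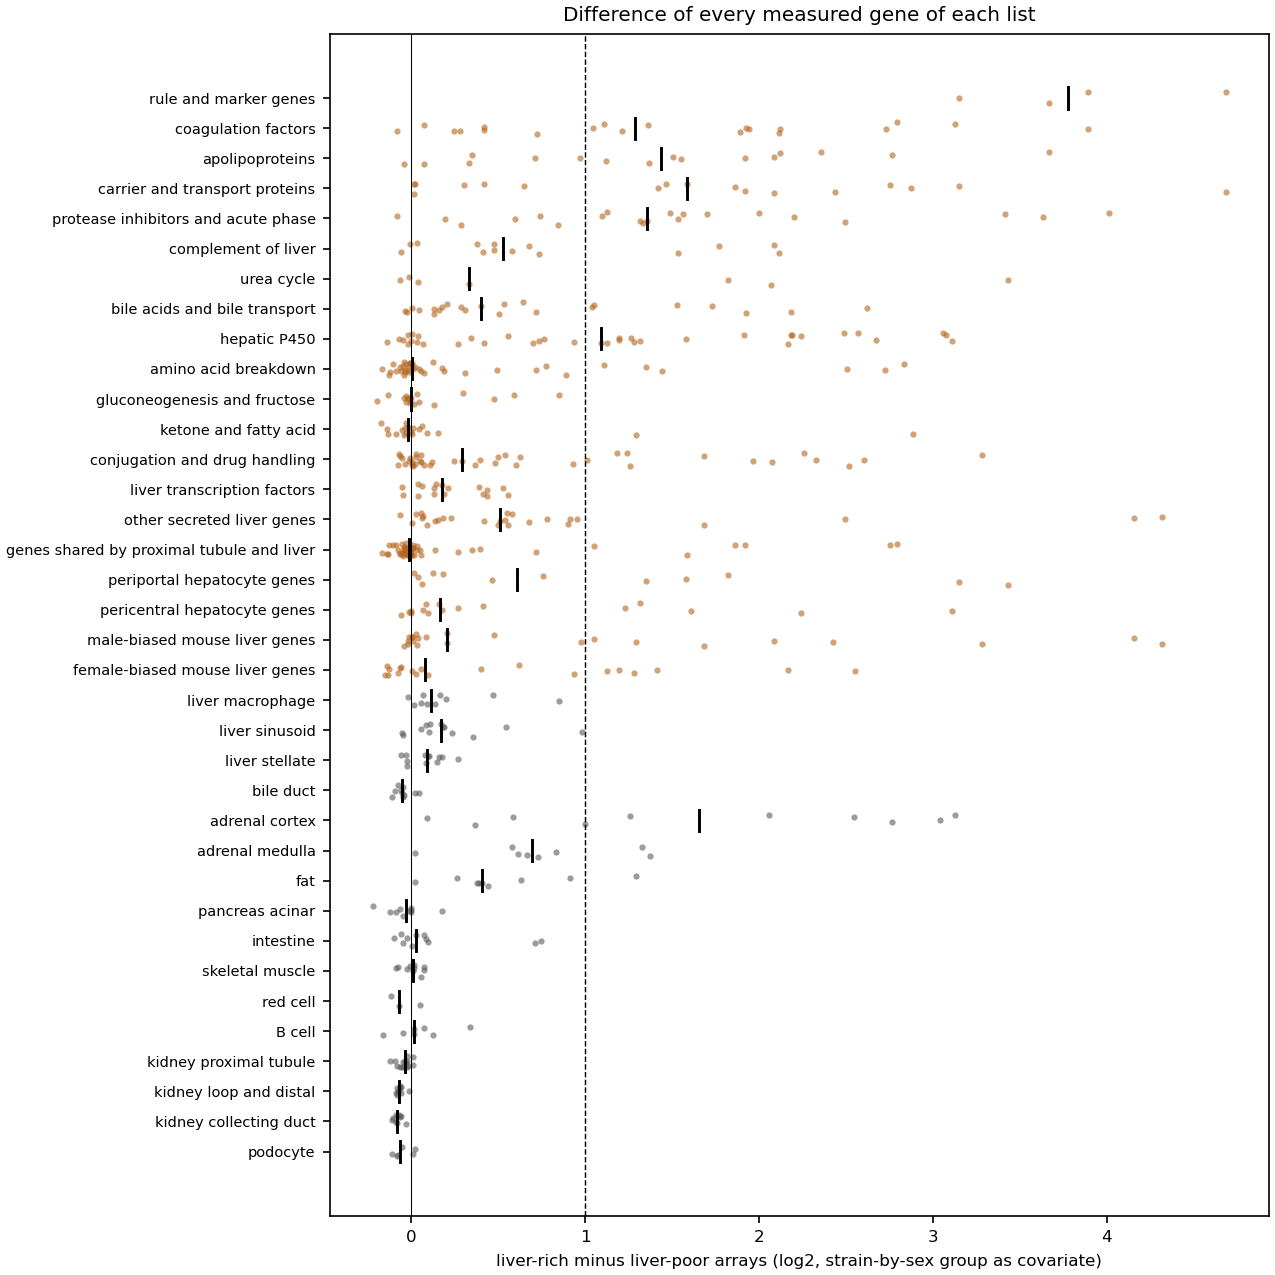
Liver-rich minus liver-poor difference (log2, with strain and sex group as covariate) of every measured gene of each list, with 1 point per gene and a bar at the list's median. Brown points are hepatocyte lists and grey points other cell types, and the dashed line is a difference of 1. The lists of coagulation factors, apolipoproteins, carriers and protease inhibitors have medians of 1.29 to 1.59, and the lists of gluconeogenesis, of shared tubule and liver genes and of kidney segments have medians near 0.

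The start regions of the liver-type genes were set side by side. Of the 106 liver-type genes past 1, 88 had a promoter sequence of 300 bases (250 before the start and 50 after), and of the 146 constant ones 120 did. The letters TTGCNNAA were in 36.4% of the first, 13.3% of the second and 12.2% of all 27025 promoters. GTTAAT was in 21.6% and 19.2% of these sets and in 8.24% of all. AAAGTCC, a core of sites for HNF4, was in 17.0% and 15.8% against 4.84%. For TNTTTAC, the FOXA type, the shares were 27.3% and 16.7% against 14.0%. TATAAA was in 33.0% and 20.8% against 15.7%. CACGTG, the E-box, was in 1.14% (1 of 88 genes) and 10.8% against 8.09%, and AGGTCANAG, a stretch of some nuclear receptor sites, in 3.41% and 7.5% against 2.31%. The 7 patterns were read on both strands and may overlap each other. In percentage points the liver-type sets differed most for the C/EBP letters and least for the HNF1 and HNF4 letters, as a description of sequence, not of binding.

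Of the 132 genes, 124 were higher in liver-rich arrays in all 4 groups, but the size of the difference varied between males and females. This is a description with no test. The difference was fitted in males (5 liver-rich against 6 liver-poor arrays) and in females (4 against 5). It was larger in females for 129 of the 132 genes, a share that was not computed over all genes. *Alb* itself differed by 2.93 in males and 3.40 in females. For the 4 markers much of this excess lay in the BPN/3J females. In that group alone *Alb*, *Ahsg*, *Fgb* and *Apoa1* differed by 4.01, 7.89, 6.59 and 6.15. With that group left out, both sexes together differed by 2.92, 3.83, 3.17 and 3.01, beside 2.93, 3.63, 3.12 and 2.96 in males. In 11 of the 132, among them *Cyp2b13*, *Cyp3a16*, *Cyp3a44* and *Cyp2c38*, the male difference lay within 0.25 of 0. *Sult3a1*, a sulfotransferase of female mouse liver, was 2.81 to 3.01 in the 5 liver-rich males and 2.86 to 3.04 in the 6 liver-poor males, and 5.71 to 11.18 in the 4 liver-rich females against 2.95 to 3.37 in the 5 liver-poor females. All liver-rich females stood above every liver-poor female, and the male sets overlapped. The difference was -0.05 in males and 5.56 in females.

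*Cyp2b9*, a female-specific liver P450, was 4.71 to 5.28 in liver-rich males and 4.94 to 5.24 in liver-poor males, and 6.72 to 12.25 against 4.78 to 5.42 in females. The difference was -0.10 in males and 4.77 in females. *A1bg* (-0.08 and 3.13) and *Sult3a2* (-0.12 and 4.29) had the same form. Of 20 measured female-biased liver genes 6 were past 1 with the sexes together, and 11 were constant. Male-biased liver genes had 8 of 23 past 1, and the 3 genes of the 132 with a larger difference in males were *Mup20*, *Mup21* (1.72 in males and 1.64 in females) and *Elovl3* (1.80 and 0.70), all of this list. *Mup20* was 9.13 to 11.07 in liver-rich males and 4.16 to 6.75 in liver-poor males, and 6.31 to 9.42 against 4.19 to 5.002 in females. The sets were apart in both sexes, with a difference of 5.16 in males and 3.01 in females.

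**Figure D3:**
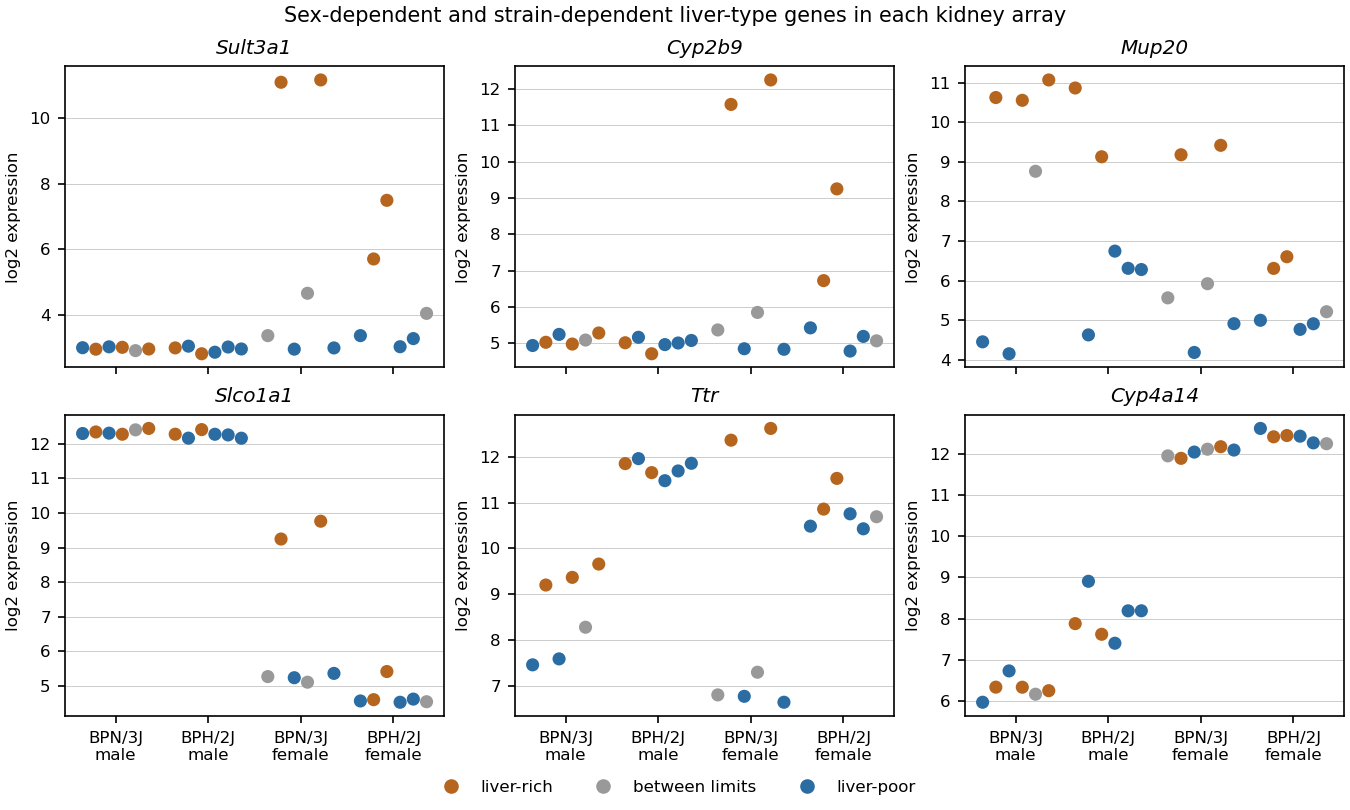
Log2 expression of *Sult3a1*, *Cyp2b9*, *Mup20*, *Slco1a1*, *Ttr* and *Cyp4a14* in each of the 24 arrays by group, 1 point per array, coloured by liver-rich, intermediate and liver-poor set. *Sult3a1* and *Cyp2b9* are high in liver-rich females alone among the sets plotted, while *Slco1a1* is near 12.3 in every male and *Cyp4a14* separates the sexes whatever the set.

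*Slco1a1* and *Pzp* were high in every male array and varied among females. *Slco1a1*, an organic anion transporter, was 12.17 to 12.45 in all 11 male arrays of both sets, and 4.60 to 9.76 in liver-rich against 4.52 to 5.36 in liver-poor females. Its difference was 0.09 in males and 2.15 in females, and 0.20 over both sexes without the BPN/3J females. *Pzp*, a plasma protease inhibitor, was 11.64 to 11.82 in liver-rich and 11.45 to 11.79 in liver-poor males, and 7.68 to 12.33 against 5.53 to 6.10 in females, with differences of 0.14 and 4.58. The ranges of *Pzp* were apart in females, and those of *Slco1a1* overlapped, with BPH/2J female 2 at 4.60.

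Other liver cells were much less visible than hepatocytes. Of 10 liver macrophage genes 0 were past 1, with *Vsig4* at 0.85 ± 0.25, *Cd5l* at 0.47 ± 0.20 and *Clec4f*, the Kupffer cell lectin, at 0.20 ± 0.09. Of 13 sinusoid genes 0 were past 1, and *Clec4g*, a lectin of sinusoidal endothelium, came nearest at 0.98 ± 0.33. *Clec4g* was 8.39 and 9.01 in BPN/3J females 2 and 5 and 5.66 to 6.61 in the other liver-rich arrays, beside 5.29 to 5.91 in liver-poor arrays. Stellate cell genes and bile duct genes were all constant, 12 of 12 and 10 of 10. Over all genes 97.6% were constant and 0.703% past 1. The periportal and pericentral ends of the liver lobule were both represented, with 5 of 12 and 5 of 16 genes past 1. *Cps1*, *Hal* and *Cyp2f2* were among the periportal ones, and *Cyp2c29*, *Cyp1a2* and *Gulo* among the pericentral ones. The pericentral genes *Glul* and *Oat* and the periportal *Pck1* were constant.

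Adrenal genes were also higher in liver-rich arrays. Of 10 adrenal cortex genes 6 were past 1, with a median of 1.66, and *Cyp11b1* and *Cyp21a1*, enzymes of corticosteroid synthesis, differed by 3.13 ± 0.86 and 3.04 ± 0.85. The mean of the 10 cortex genes was 6.46, 8.44 and 9.54 in the lowest, median and highest liver-rich array and 5.74, 6.03 and 9.51 in liver-poor arrays, so the sets overlapped widely. *Cyp11b1* was 11.95 and 11.74 in the liver-poor BPH/2J females 1 and 4, and 6.67 in the liver-rich BPH/2J male 1. With the cortex mean as a further covariate, the differences of *Ahsg*, *Fgb* and *Apoa1* were 4.24, 3.54 and 3.39. Under that covariate those of *Sult3a1*, *Cyp2b9* and *Pzp* were 1.60, 1.36 and 1.46, and those of *Ttr* and *Slco1a1*, at 0.91 and 0.47, were no longer past 1. Adrenal medulla genes had 2 of 8 past 1, *Chgb* (1.38 ± 0.47) and *Chga* (1.33 ± 0.52), and 1 constant, with a median of 0.70. Of 9 fat genes 1 was past 1, *Elovl3*, which is also a liver gene, 2 were constant and 6 were neither, with a median of 0.41. The brown fat gene *Ucp1* differed by 0.91 ± 0.25. The part of the adrenal and fat RNA in the liver-type differences beyond this covariate was not tested. Pancreas, intestine, skeletal muscle, red cell and B cell lists had 0 genes past 1, beside 0.703% of all genes.

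**Figure D4:**
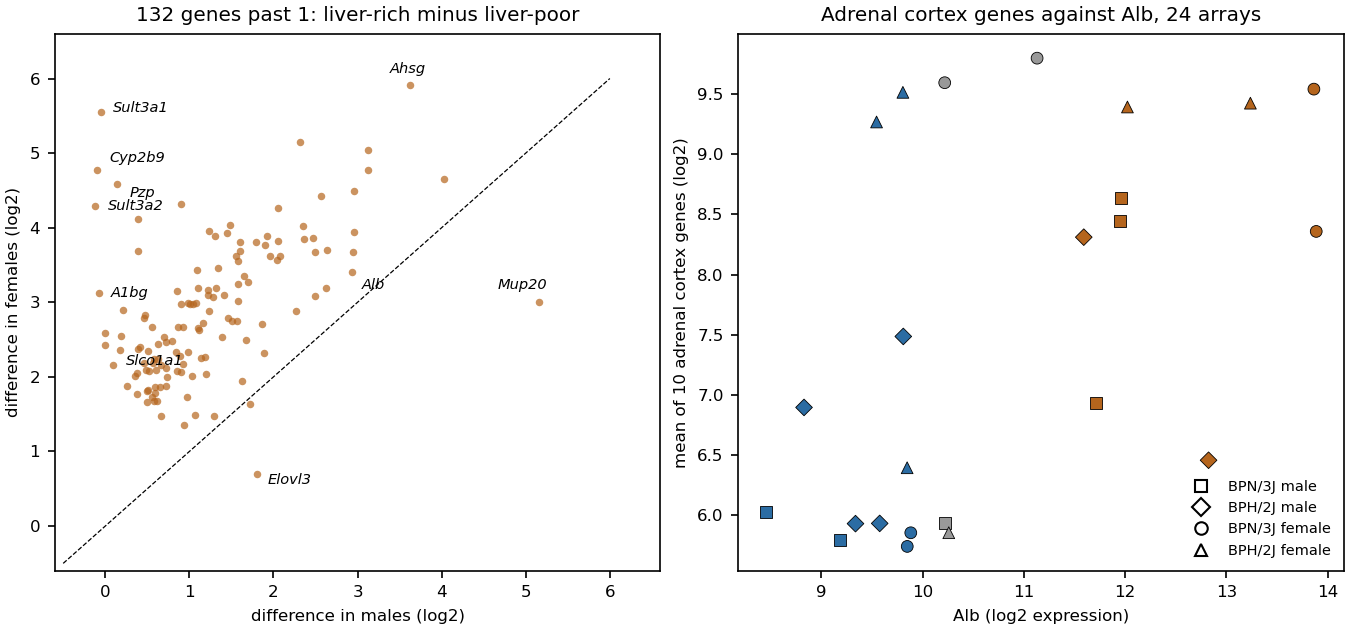
Left, liver-rich minus liver-poor difference in females against that in males (log2) for the 132 genes past 1, with equality dashed. Most genes lie above the line, *Sult3a1* and *Cyp2b9* lie near 0 in males, and *Mup20* and *Elovl3* lie below the line. Right, mean of 10 adrenal cortex genes against *Alb* in each of the 24 arrays (log2), coloured as liver-rich (brown), intermediate (grey) and liver-poor (blue), where liver-poor arrays reach 9.51.

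Kidney genes hardly differed, like most genes. All 41 measured genes of the proximal tubule, the loop and distal tubule, the collecting duct and the podocyte were constant. So were 97.6% of all genes, so the count is not particular to kidney genes. Their median difference was -0.06, beside -0.01 over all genes, with a range of -0.12 to 0.02. *Slc34a1*, the phosphate cotransporter of the proximal tubule, differed by -0.02 ± 0.01, *Umod* of the thick ascending limb by -0.01 ± 0.02, *Aqp2* of the collecting duct by -0.08 ± 0.06 and *Nphs1* of the podocyte by -0.08 ± 0.06. The most negative differences of all genes were those of *Cyp24a1*, the vitamin D hydroxylase, at -0.45 ± 0.26, of *Gal3st2c* at -0.35 ± 0.15 and of *Slc7a12* at -0.34 ± 0.21. Liver-rich and liver-poor arrays overlapped in each of these 3 genes.

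In the 4 arrays that the limits left out, each of the 132 genes was set against the liver-poor and liver-rich arrays of the same group. Above the highest liver-poor and below the lowest liver-rich array lay 84 of the 132 in BPN/3J female 4 and 79 in BPN/3J male 5. The counts were 74 in BPN/3J female 1 and 37 in BPH/2J female 6. The 132 genes were chosen for higher values in liver-rich arrays, and the share over all genes was not computed. The groups also hold different numbers of liver-rich and liver-poor arrays, so nothing is read from these counts.

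The strain and sex comparisons use the labelled groups, which do not depend on *Alb*, and could be tested. Each comparison set 6 arrays against 6. For strains, within 1 sex, a gene was called at a Bonferroni-adjusted p under 0.05 in limma, and for sexes, within 1 strain, the threshold was the same after the Benjamini-Hochberg adjustment. Among the 132 genes, 1 was higher in BPH/2J males than in BPN/3J males and 0 were lower, where 1.33% and 1.24% of all genes were called in these directions. In females 0 were called either way in limma, where 1.18% and 1.14% of all genes were, and 0 were higher and 3 lower at an unadjusted p under 0.05. The methods' t-test called 0 of the 132 in either sex. The median strain effect over the 132 was -0.12 in males and -1.13 in females, and -0.03 and -0.06 without the liver-rich arrays. The standard error of the strain effect was wide in these genes, with a median of 0.33 in males and 0.91 in females, against 0.06 in each sex over all genes. *Alb* chose the 132 genes for differing between arrays of the same groups, which widens this error. Nothing is therefore read from the low number of calls among them in the strain and sex comparisons. *Alb* differed by -0.25 ± 0.77 between male strains and by -0.69 ± 0.88 between female strains, both at an adjusted p of 1.0 in limma.

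The gene called was *Ttr*, which encodes transthyretin, the thyroxine and retinol carrier. Among males it was 7.46 to 9.66 in BPN/3J and 11.48 to 11.96 in BPH/2J, with no overlap, an effect of 3.15 ± 0.34 and an adjusted p of 0.0137 in limma. By the methods' t-test it was not called. In BPN/3J females *Ttr* was 12.36 and 12.62 in the liver-rich arrays 2 and 5 and 6.65 to 7.30 in the other 4, whereas the 6 females of BPH/2J lay at 10.43 to 11.53. The strain effect in females was 2.04 ± 1.06 with an adjusted p of 1.0 in limma. With *Alb* as a covariate the effect in males was 3.23 ± 0.27, and *Ttr* did not pass the threshold in females. That fit also gave 1.17 ± 0.13 for *Saa4* and -0.98 ± 0.10 for *Itih2* in BPH/2J males. For *Serpina1b*, an alpha-1-antitrypsin, it gave -2.73 ± 0.26 in BPH/2J females. Without the liver-rich arrays, which left 3 males of BPN/3J and 4 arrays in each of the other groups, the effect of *Ttr* was 3.97 in males and 3.71 in females, and that of *Serpina1b* in females was -3.31. These are given without a test, since *Alb* chose the arrays left out.

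Among the 146 constant liver-type genes the median standard error of the strain effect was 0.05 in males and 0.06 in females. The rule for constant genes leaves out those with a wide interval, so nothing is read from these small values. The hypertensive strain had 9 of them higher and 8 lower among males, and 2 higher and 5 lower among females, beside 1.33% and 1.24% of all genes in males and 1.18% and 1.14% in females. *Cyp4b1*, a P450 of the proximal tubule, was upregulated in BPH/2J by 1.78 ± 0.04 in males (adjusted p = 1.43e-10 in limma) and by 3.42 ± 0.08 in females (adjusted p = 1.94e-10). *Dio1*, the thyroxine deiodinase, was downregulated by 1.06 on the log2 scale in both sexes (effects of -1.06 ± 0.11 and -1.06 ± 0.08, adjusted p = 0.00571 and 0.000123 in limma). *Aadac*, an esterase, was lower by -0.73 ± 0.04 and -0.80 ± 0.04, and *Acsm1*, an acyl-CoA synthetase, was lower in males by -1.18 ± 0.04 (adjusted p = 7.99e-09 in limma).

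A further 72 liver-type genes were neither past 1 nor constant, and the strain comparison called 7 upward and 3 downward in BPH/2J males and 0 upward and 1 downward in BPH/2J females, where the shares over all genes were 1.33%, 1.24%, 1.18% and 1.14% in the same order. *Serpina1d* differed between liver-rich and liver-poor arrays by 0.60 ± 0.25 and was higher in BPH/2J males by 4.31 ± 0.18 (adjusted p = 1.34e-07 in limma). *Ces1g*, a carboxylesterase, differed by 0.54 ± 0.27 between the sets and was higher in BPH/2J males by 2.57 ± 0.17 (adjusted p = 3.78e-05 in limma). *Aldh1a7* was higher in BPH/2J males by 2.43 ± 0.10 and *Fmo5* lower by -0.83 ± 0.07. In females *Aldh1a1*, a retinaldehyde dehydrogenase, was lower by -1.73 ± 0.16 (adjusted p = 0.00214 in limma). *Aldh1a1* and *Aldh1a7* are close paralogs, and cross-hybridisation between their probes was not tested.

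**Figure D5:**
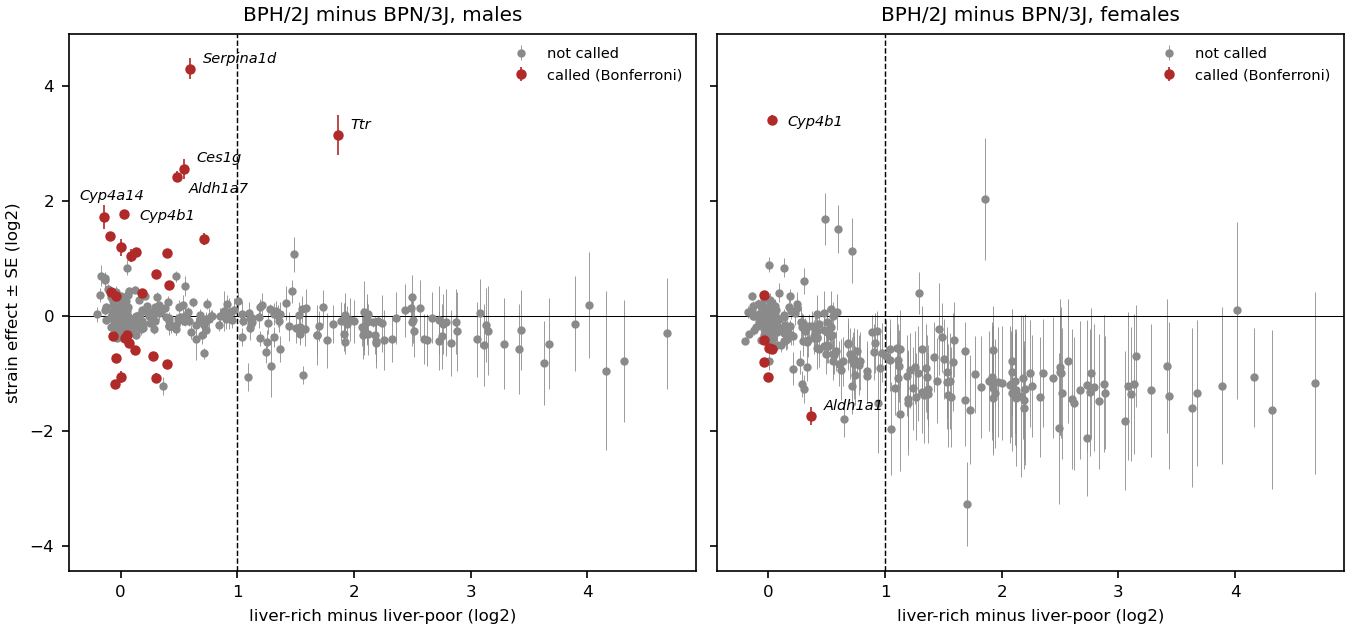
Strain effect (BPH/2J minus BPN/3J, log2, ± SE, 6 against 6 arrays) against the liver-rich minus liver-poor difference for the 324 measured liver-type genes, in males (left) and females (right). Red points passed the Bonferroni threshold in limma. Error bars widen to the right of the dashed line at 1, where *Ttr* in males is the gene called.

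The sexes differed in many liver-type genes that were constant between the sets. Females of BPN/3J had 53 of the 146 higher and 50 lower than males, and females of BPH/2J had 46 higher and 61 lower, beside 16.5% and 16.6% of all genes in BPN/3J and 17.4% and 15.5% in BPH/2J. *Cyp4a14*, a fatty acid hydroxylase, was higher in females by 5.74 ± 0.10 in BPN/3J and 4.36 ± 0.20 in BPH/2J (adjusted p = 3.57e-13 and 3.79e-09 in limma). It was 11.89 to 12.61 in all females and 5.98 to 8.91 in all males. *Kynu*, kynureninase of tryptophan breakdown, was higher in females by 3.72 ± 0.14 and 2.69 ± 0.13. *Cyp4a12a*, a fatty acid hydroxylase of male kidney, was lower in females by -3.23 ± 0.11 and -4.02 ± 0.11. *Hnf4a* was lower in females by -0.26 ± 0.05 and -0.23 ± 0.04, and *Pck1* higher by 0.31 ± 0.08 and 0.20 ± 0.06 (adjusted p = 0.000931, 0.000506, 0.0123 and 0.033 in limma, in that order).

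Of the 132 genes past 1, 0 were higher (0 also at an unadjusted p under 0.05) and 2 lower in BPN/3J females than males, *Slco1a1* by -5.69 ± 0.80 and *Pzp* by -3.62 ± 1.15 (adjusted p = 0.000127 and 0.0304 in limma). In BPH/2J 0 were higher (5 at an unadjusted p under 0.05) and 11 lower, among them *Slco1a1* (-7.55 ± 0.13), *Pzp* (-4.80 ± 0.62), *Apoh* (-2.73 ± 0.52), *Serpina1b* (-2.13 ± 0.59) and *Hrg* (-1.81 ± 0.47). With *Alb* as a covariate the counts were 0 higher and 8 lower in BPN/3J and 1 higher and 36 lower in BPH/2J. Over all 18782 genes they were 3170 higher and 2850 lower in BPN/3J and 3246 higher and 2851 lower in BPH/2J. *Alb* also chose the 132 genes, and 1 slope on it served both sexes, so these counts are a description. The 36 included the markers *Ahsg*, *Fgb* and *Apoa1* (-0.72 ± 0.15, -0.73 ± 0.18 and -0.84 ± 0.19), not called without the covariate. In liver-poor arrays the mean of *Alb* was 9.20 in males and 9.79 in females. *Apoh*, a phospholipid binding plasma protein, was in that fit lower in females of both strains (-2.16 ± 0.67 and -2.96 ± 0.36). With that covariate *Hrg* (histidine-rich glycoprotein) and *Itih2* passed the threshold in BPH/2J (-2.04 ± 0.29 and -1.24 ± 0.19) and not in BPN/3J. The difference between the strains was not called for either gene. Without the liver-rich arrays both were lower in females of both strains. Their effects were then -2.73 and -1.99 in BPN/3J and -2.25 and -1.34 in BPH/2J, given without a test.

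The strain effect differed between the sexes (interaction in limma, Benjamini-Hochberg) in 0 of the 132 genes (2 at an unadjusted p under 0.05) and in 21 of the 146 constant ones, with 4 interactions above 0 and 17 below 0, beside 1.13% and 1.1% of all genes. The sign here is that of the female minus the male strain effect. *Cyp4b1* had the largest positive interaction, 1.64 ± 0.10, and *Cyp4a14* the largest negative one among the constant genes, -1.37 ± 0.23 (adjusted p = 8.44e-11 and 0.0013). Each p-value of these comparisons measures the spread between mice, with 1 array per mouse.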

How the data were processed

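Kidney RNA of 24 mice was measured on Affymetrix Mouse Gene 1.0 ST arrays, with a separate array for every animal. Robust multiarray analysis (RMA) was run by the authors, and the deposited table holds log2 expression of 28853 probe sets. Its version was not given in the sources used here. Values were used as deposited. Of the probe sets, 21159 carry 1 gene symbol, 1881 several and 5813 none, and the probe set with the highest mean among those with its symbol alone stood for each of 18782 genes. The number of arrays limits the precision.

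Arrays were set as liver-rich or liver-poor by *Alb*, and the difference was fitted in R 4.3.3 with limma 3.58.1 and the 4 groups as covariate (15 residual degrees of freedom). Strains and sexes were compared by limma on all probe sets, with p-values adjusted over all of them. Both fits were tested on simulated data. Members, limits, gene lists and sequence patterns were chosen with earlier results of these data known. Named genes were the markers, the largest differences in each direction, up to 6 of each list, the largest calls of the labelled comparisons and the genes most like *Alb*. Genes named for a difference between the sexes, and other genes beyond this rule, were chosen after their values were seen. Promoter sequences are from RefSeq (GRCm38.p6). Alternatives covered the limits, the marker gene, covariates, normalisation, dim probe sets, thresholds and single arrays. Figures were drawn with matplotlib 3.10.9.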

Additional observations from a re-analysis of the deposited data

Results flagged for a closer look

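Among 76 comparisons of single arrays with their group (18 genes and the adrenal cortex mean in 4 groups), 2 arrays stood apart from the other 5 of their group by Dixon's criterion, where chance alone gives about 1 in 20. *Hamp* was 7.63 in BPH/2J male 1, the highest of its group. *Slco1a1* was 5.41 in BPH/2J female 3, the highest of its group. Both arrays were liver-rich and also held the highest *Alb* of their groups, at 12.82 and 13.24.

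The strain effect differed between females and males, by the interaction in limma, above 0 in 4 and below 0 in 23 of the 324 measured liver-type genes. Over all genes 1.13% and 1.1% were called in these directions. The 9 genes given here were named for being the largest calls in each direction, so their number is not a result. The female minus male difference was -2.78 for *Serpina1d* (adjusted p = 0.00152), -2.75 for *Ces1g* (adjusted p = 0.000978), -1.37 for *Cyp4a14* (adjusted p = 0.0013), -1.37 for *Slco1a4* (adjusted p = 0.019) and -1.27 for *Cyp7b1* (adjusted p = 0.0266). It was 1.64 for *Cyp4b1* (adjusted p = 8.44e-11), 0.77 for *Acsm1* (adjusted p = 1.6e-07), 0.47 for *Nat8* (adjusted p = 0.0141) and 0.34 for *Ces1e* (adjusted p = 0.0164).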

How the results depend on the processing

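The 169 probe sets past 1 between liver-rich and liver-poor arrays were 145 to 184 when each array was left out in turn. They were 380 in BPN/3J females alone, 95 with dim probe sets left out (fewer were then counted over) and, as alternatives chosen after seeing the data, 105 without the BPN/3J females and 101 in males alone. In males alone *Sult3a1* and *Cyp2b9* turned to -0.054 and -0.098. With the adrenal cortex mean as covariate they were 113, only just within 1.5 times. Other limits, *Ahsg* in place of *Alb*, quantile or median scaling, no group covariate and a slope on *Alb* gave 152 to 181.

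Strain calls over all probe sets were 740 in males and 681 in females. They were 447 and 398 by the methods' t-test with Bonferroni, 4381 and 4180 at the Benjamini-Hochberg threshold, and 201 and 288 without the liver-rich arrays. Sex calls, 8424 in BPN/3J and 8349 in BPH/2J, were 1367 and 1361 at the Bonferroni threshold, and the BPN/3J calls were 5201 without the liver-rich arrays. The 508 interaction calls were 170 without them. For these, fewer arrays entered.

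Replicate numbers were not treated as pairing the arrays, since not every same-numbered pair correlated above 0.1. Within a sex or a strain these correlations ran from -0.57 to 0.44, so pairing was not excluded. With the replicate number as a block, strain calls were 321 in males and 304 in females, and *Ttr* in males had an adjusted p of 0.207 in limma; it also missed the threshold by the methods' t-test. The planned correlation in the intermediate arrays was not run, since there were 4.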
